A study of Mus musculus with 10 samples.

Results

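The MHC class II genes and Cd74 were followed in gastrocnemius muscle, a large muscle of the lower leg, of young and aged mice by mRNA sequencing. The set comprised the 3 classical chain genes H2-Aa, H2-Ab1 and H2-Eb1, the peptide exchange genes H2-DMa and H2-DMb1, the invariant chain gene Cd74 and the transcriptional activator gene Ciita, chosen by name as 7 of 37947 gene symbols. They held 16 of the 92018 transcript rows, and for each gene the row with the highest mean over all libraries was used. All mice were male C57BL/6, and no genotype or treatment other than age is given for them. The young group was 6 months old and the aged group 24 months old, with 5 libraries in each and 1 library per mouse, so the comparison addresses how the level of these mRNAs differs with age. Values are log2 FPKM (fragments per kilobase of transcript, scaled to the mapped reads of the library), in which an FPKM under 1 is listed as 0.

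MHC class II molecules are dimers of an alpha and a beta chain that present peptides from endosomes to CD4+ T cells, and they are made mainly by dendritic cells, macrophages and B cells. The invariant chain, Cd74, binds new dimers in the endoplasmic reticulum, covers the peptide groove and directs the complex to endosomes, where proteases such as cathepsin S trim it to the fragment CLIP. H2-DM, a dimer of the H2-DMa and H2-DMb1 products, exchanges CLIP for peptides. Ciita is the activator on which transcription of all of these genes depends, and interferon gamma induces it, with Irf1 among the factors that act on its promoter. Muscle fibers carry little class II at rest, whereas macrophages and dendritic cells lie between the fibers. C57BL/6 mice make no E alpha chain, so the E beta chain encoded by H2-Eb1 has no regular partner at the cell surface.

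The libraries held 19886360 to 34554359 reads, as recovered from the steps between the deposited values. Summed FPKM of the 7 muscle fiber markers was 88600 to 105000 in young and 80700 to 97000 in aged muscle. Aged library 3 stood apart. It had 29793 transcripts above 0 against 34923 to 43180 in the other 9 libraries, and its genes with transcripts over 3000 bases lay at a median of 0.61 below the other aged libraries on the log2 scale. Young library 3, the deepest, had the next lowest number of transcripts (34923). Results are therefore also given without aged library 3 and without both libraries numbered 3.

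The classical chain genes and Cd74 were about 3-fold higher in aged muscle by their group means, and aged libraries 3 and 4 carried most of that difference. H2-Aa, the alpha chain of the A molecule, had log2 FPKM of 2.91, 3.60, 3.09, 2.75 and 2.71 in young libraries 1 to 5 and 4.13, 3.16, 6.55, 5.55 and 3.81 in aged libraries 1 to 5. Its beta chain partner H2-Ab1 had 3.03, 3.61, 3.39, 2.67 and 2.62 in young and 3.98, 3.29, 6.83, 5.41 and 3.63 in aged libraries. H2-Eb1 had 2.68, 3.40, 3.29, 2.85 and 2.66 in young and 3.98, 3.12, 6.53, 5.50 and 3.62 in aged libraries. For all 3 genes, 4 of 5 aged libraries were above every young library, and aged library 2 lay below young library 2. Cd74 had 3.88, 4.73, 4.47, 3.82 and 3.53 in young and 5.02, 4.27, 7.85, 6.44 and 4.62 in aged libraries. For Cd74 only 3 of 5 aged libraries were above every young library, since aged libraries 2 and 5 were below young library 2. Between its lowest and highest library Cd74 spanned 20.0-fold, H2-Ab1 18.5-fold, H2-Eb1 14.6-fold and H2-Aa 14.4-fold, while the young libraries of each gene lay within 1.21 on the log2 scale.

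**Figure D1:**
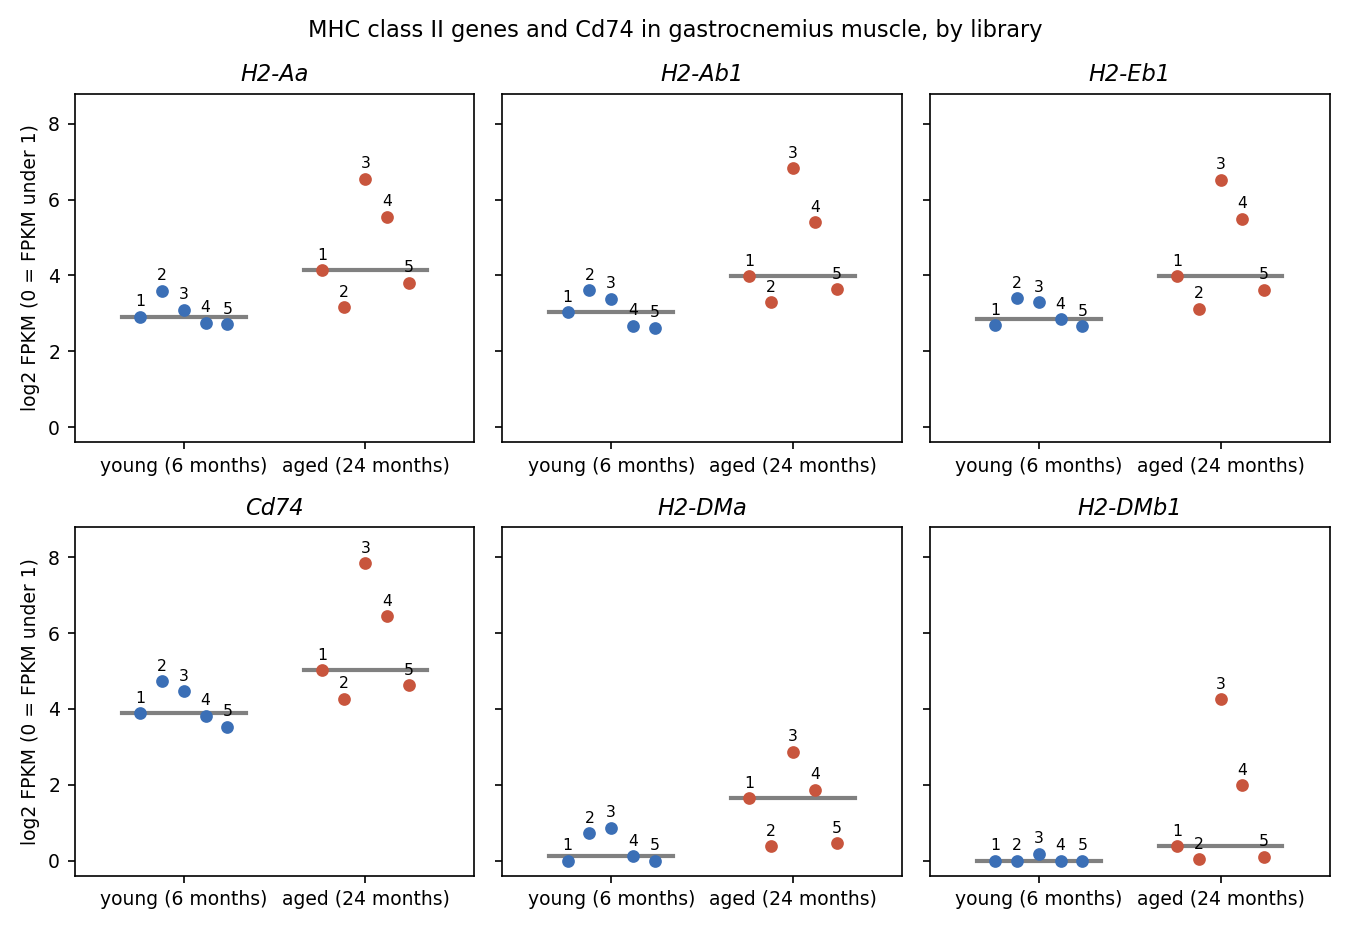
log2 FPKM of 6 genes (y axis, values under FPKM 1 at 0) in the young and aged libraries (x axis); each point is 1 library with its number and the grey line is the median of the group, n = 5. Aged libraries 3 and 4 are the 2 highest in every panel, with Cd74 at 7.85 and 6.44, and aged library 2 lies within the range of the young libraries in every panel.

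H2-Aa averaged 3.01 ± 0.36 in young libraries and 4.64 ± 1.38 in aged ones (SD, n = 5 each), 1.63 apart on the log2 scale or 3.09-fold (two-sided exact permutation test, p = 0.0159). H2-Eb1 went from 2.98 ± 0.35 to 4.55 ± 1.42 (SD, n = 5 each), a difference of 1.58 or 2.98-fold (exact permutation p = 0.0238). H2-Ab1 went from 3.06 ± 0.43 to 4.63 ± 1.47 (SD, n = 5 each), a difference of 1.57 or 2.96-fold (exact permutation p = 0.0317). Cd74 went from 4.09 ± 0.50 to 5.64 ± 1.49 (SD, n = 5 each), a difference of 1.55 or 2.94-fold (exact permutation p = 0.0397). The SD between aged mice, 1.38 to 1.49, was thus close in size to the difference between the ages. These p-values are unadjusted. Of the 7 genes, 4 had an exact p under 0.05 with the higher level in aged muscle, against 7.73% of the 10161 genes with a mean FPKM of at least 1. Quantile normalization left 2 of the 4, since it put the exact permutation p at 0.0556 for H2-Ab1 and 0.0635 for Cd74.

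After adjustment over 37952 transcripts none of the 6 genes that entered the limma fit was called (Benjamini-Hochberg adjusted p = 0.9999 for each), while 0.0079% of all transcripts were called higher in aged muscle. At an unadjusted limma p under 0.05, 5 of the 6 were higher, against 3.9% of transcripts. H2-DMa and H2-DMb1 met the level filter only through their aged libraries, and H2-DMa is among the 5. The criteria of the study, more than 2-fold with an unadjusted p under 0.05 by a 2-sample equal-variance test, were met by 2 of the 7. These were H2-Aa (p = 0.0346 in that test beside the exact permutation value above) and H2-Eb1 (p = 0.0423, likewise). Of all genes, 1.04% met them with the higher level in aged muscle. No gene of the set had groups without overlap, which 2.08% of genes had with aged above young. The median difference of the 4 genes above 0 in all libraries was 1.58, against 0.072 over all genes.

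Same-numbered young and aged libraries deviated together, and with the replicate number as a block none of the exact tests was under 0.05, a level that 5 pairs cannot reach. Aged muscle was higher in 4 of 5 pairs for H2-Aa, H2-Ab1, H2-Eb1 and Cd74, with pair 2 as the exception, and the exact sign-flip permutation p was 0.125 for each, where 0.0625 is the smallest that 5 pairs can give. The block left 0 genes past the 2-fold criteria, and limma's adjusted p was 0.562 to 0.639 for the 6 genes. Limma's unadjusted p with the block was 0.0214 for H2-Aa, 0.0231 for H2-Ab1, 0.0165 for H2-Eb1 and 0.0229 for Cd74, against 0.0171, 0.0281, 0.022 and 0.0318 without it. Without aged library 3 the differences were 1.15 for H2-Aa, 1.02 for H2-Ab1, 1.08 for H2-Eb1 and 1.00 for Cd74, with exact permutation p of 0.0317, 0.0476, 0.0317 and 0.0635. Without both libraries numbered 3 they were 1.17, 1.10, 1.16 and 1.10, with exact permutation p of 0.0571 for the 3 chain genes and 0.0857 for Cd74. Omission of young library 1, 4 or 5 put the exact permutation p of all 4 genes at 0.0556 to 0.111. Omission of young library 3 gave 0.0556 for H2-Ab1 and 0.0635 for Cd74 in the exact permutation test, and omission of aged library 4 gave 0.0556 for Cd74. Omission of aged library 2 gave differences of 1.90 to 2.00 and exact permutation p of 0.00794 for the 3 chain genes and 0.0159 for Cd74, and omission of aged library 5 gave 0.0159 to 0.0317 in the exact permutation test.

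The promoters of H2-Aa and H2-Eb1 are shown because these 2 genes lie close together on chromosome 17 and were high in the same libraries, and because class II promoters carry an X box, bound by the RFX complex, and a Y box, bound by NF-Y. RefSeq's promoter windows (GRCm38.p6) matched 4 of the 7 genes. No window was matched for H2-Ab1, Cd74 or Ciita, so H2-Ab1, which lies nearer to H2-Aa and was high in the same libraries, is not shown. Capitals mark the X box letters AACNGATG and the Y box letters GATTGG, searched on both strands in the 250 bases before each start, where the matches of the 2 motifs did not overlap. The 150 bases before the start of H2-Aa (minus strand, chr17:34287824-34287973) and of H2-Eb1 (plus strand, chr17:34305717-34305866) read, 5′ to 3′, as follows.
H2-Aa: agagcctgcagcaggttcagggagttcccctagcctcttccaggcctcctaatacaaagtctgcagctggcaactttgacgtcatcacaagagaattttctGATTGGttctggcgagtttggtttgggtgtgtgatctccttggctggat
H2-Eb1: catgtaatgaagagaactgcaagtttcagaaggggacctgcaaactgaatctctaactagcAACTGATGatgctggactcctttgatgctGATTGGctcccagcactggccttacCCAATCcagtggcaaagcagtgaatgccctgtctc
H2-Aa held a Y box that begins 49 bases before the start and no match to these X box letters. H2-Eb1 held an X box that begins 89 bases before the start, a Y box 60 bases before it, 29 bases downstream of the X box, and a reverse Y box match 35 bases before it. H2-DMb1 held the X box at 92 and the Y box at 62 bases before the start, 30 bases apart. The 24 bases around the X box of these 2 genes are printed here one under the other.
H2-Eb1: ctagcAACTGATGatgctggactc
H2-DMb1: ctagtAACTGATGatgctaggctg
Of 32851 promoter windows of the same length, 14.6% held the Y box letters, 1.98% the X box letters and 0.25% both. Of the 2 windows of H2-DMa neither held the X box letters, and 1 held a Y box 199 bases before its start. These matches describe letters, not occupied sites.

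In the chosen rows, the chain genes of each library kept nearly the same relation to each other and to Cd74 at both ages. Cd74 was above H2-Ab1 by 0.85 to 1.14 on the log2 FPKM scale in all 10 libraries, on average by 1.02 ± 0.13 at the young and 1.01 ± 0.03 at the old age (SD, n = 5 each), and the ages did not differ in that difference by more than its spread (exact permutation p = 0.857). Cd74 exceeded H2-Aa by 0.81 to 1.38 and H2-Eb1 by 0.87 to 1.34 in every library. For each of these 3 pairs the exact sign-flip permutation p over 10 libraries was 0.00195, the smallest it can give. H2-Ab1 minus H2-Aa was −0.17 to 0.30, H2-Ab1 minus H2-Eb1 −0.18 to 0.35 and H2-Aa minus H2-Eb1 −0.20 to 0.23, so the order of the 3 chain genes changed between libraries, with exact sign-flip permutation p of 0.703, 0.162 and 0.182. In all, 6 pairs were compared and the p-values are unadjusted. In a whole muscle, more class II cells and more class II RNA per cell cannot be told apart.

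**Figure D2:**
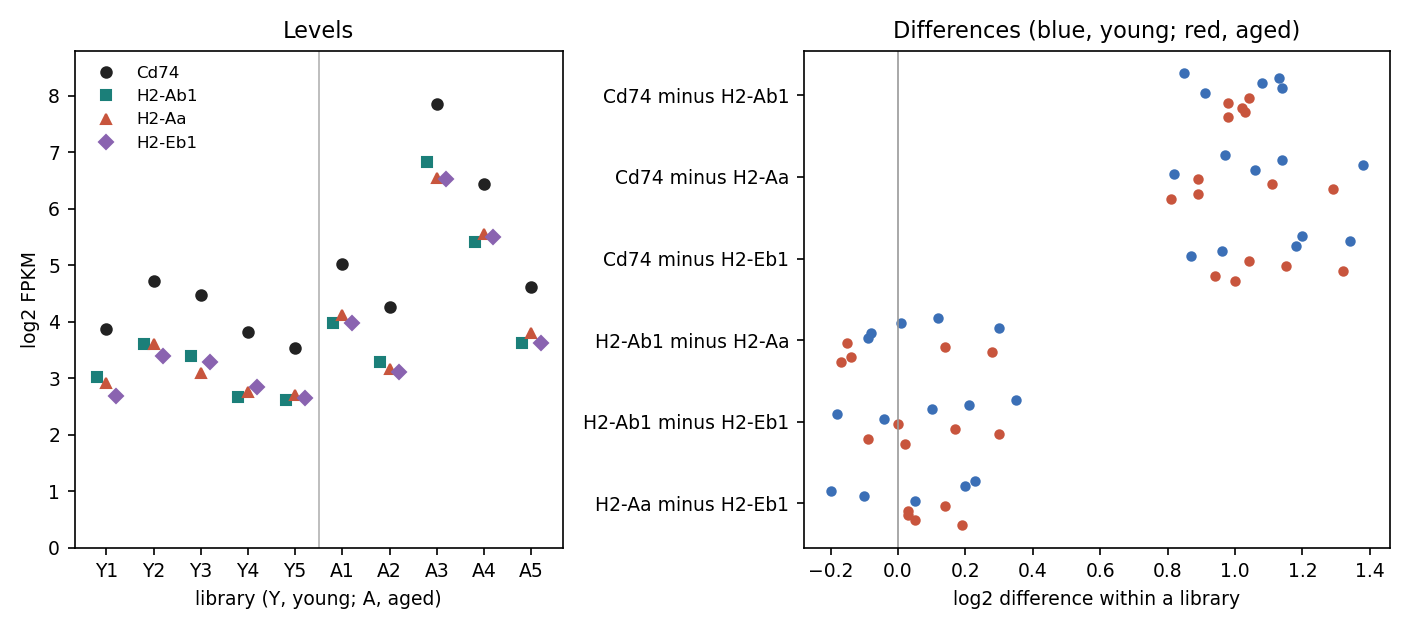
Left, log2 FPKM of Cd74 and the 3 chain genes (y axis) in each library (x axis; Y, young; A, aged). Right, the difference between 2 genes within a library (x axis, log2) for the 6 pairs (y axis), with 1 point per library; Cd74 lies 0.81 to 1.38 above every chain gene in all 10 libraries, and the 3 chain genes lie within 0.35 of each other.

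H2-DMa and H2-DMb1, the subunits of the peptide exchange factor, were close to the lower limit of the table in young muscle. H2-DMa had log2 FPKM of 0, 0.72, 0.87, 0.11 and 0 in young libraries 1 to 5 and of 1.64, 0.37, 2.87, 1.87 and 0.46 in aged libraries 1 to 5. It was above 0 in 3 of 5 young and 5 of 5 aged libraries, and the groups overlapped (log2 difference 1.10, exact permutation p = 0.0794). Its level rested on at most 41 reads in a young library and on 18 to 151 reads in an aged library. H2-DMb1 was listed at 0 in 4 of 5 young libraries and at 0.18, from 27 reads, in young library 3. In aged libraries 1 to 5 it had 0.37, 0.03, 4.26, 1.99 and 0.10, so 3 of 5 were above young library 3 (log2 difference 1.32, exact permutation p = 0.0556). The low aged libraries held 15 to 19 reads for this gene, against 73 in aged library 4 and 422 in aged library 3. Without aged library 3 the difference was 0.74 for H2-DMa (exact permutation p = 0.135) and 0.59 for H2-DMb1 (exact permutation p = 0.0556), and without both libraries numbered 3 that of H2-DMb1 was 0.62 (exact permutation p = 0.0286). Omission of aged library 2 or 5 gave exact permutation p of 0.0317 for H2-DMa and 0.0159 for H2-DMb1. For H2-DMb1 the exact permutation p was 0.175 to 0.214 with any single young library left out, 0.167 with median-of-ratios scaling and 0.206 with quantile normalization. With log2(FPKM + 1) its difference was 1.76, and with values at 0 taken as FPKM 0.5 it was 2.12 (exact permutation p = 0.0238 for each). Because values under FPKM 1 are listed as 0, these differences understate any change below that level. H2-DMb1 and H2-DMb2 are close copies, and reads shared by them are uncertain.

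Ciita was listed at 0 in all 10 libraries in its only row, including aged libraries 3 and 4, so its FPKM was under 1 in each of them and its change with age was not detectable in this table. RefSeq (GRCm38.p6) places Ciita at chr16:10480014-10531064. The chain and DM genes lie in the MHC on chromosome 17, in the order H2-DMa (34119693 to 34139101), H2-DMb1 (34153191 to 34160229), H2-Ab1 (34263227 to 34269418), H2-Aa (34282744 to 34287823) and H2-Eb1 (34305867 to 34316674). Cd74 lies apart from them at chr18:60803849-60812652.

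Further transcripts of the same genes rest on overlapping reads of the same mice, so they are no independent reading of the age difference. All 11 rows of H2-Aa, H2-Ab1, H2-Eb1 and Cd74, the chosen rows included, had an exact permutation p under 0.05. The 2-fold criteria were passed by 4 of them, H2-Aa-001, H2-Aa-003, H2-Aa-004 and H2-Eb1-001, and by no row of H2-Ab1 or Cd74. Over all genes, with 1 row each, the shares with aged above young were 7.73% and 1.04%. The 3 Cd74 rows differed from each other by at most 0.17 in any library. For H2-Aa the rows parted in aged library 3. H2-Aa-001, the longest row at 1132 bases, lay 2.20 above H2-Aa-003, a row of 664 bases, in aged library 3, and −0.16 to 0.40 above it in the other 9 libraries. H2-Aa-004, a row of 826 bases, lay 2.54 above H2-Aa-003 in aged library 3 and −0.57 to 0.36 above it in the others. H2-Aa-001 minus H2-Aa-002, a row of 646 bases, was 4.52 in aged library 3 and 1.30 to 1.90 in the others. H2-Aa-003 still had a difference of 1.32 between the ages (exact permutation p = 0.0159) and H2-Aa-002 one of 1.11 (exact permutation p = 0.0317), and in both rows the highest library was aged 4, at 5.72 and 4.24, with aged library 3 at 4.36 and 2.03. H2-Ab1-002, a row of 515 bases, lay 1.21 above H2-Ab1-003, a row of 628 bases, in aged library 3 and −0.41 to 0.33 above it in the others. H2-Ab1-001, the row used for that gene, lay 0.80 above H2-Ab1-003 in aged library 3, within the 0.63 to 1.21 of the others. H2-Ab1-001 minus H2-Ab1-002 was −0.41 in aged library 3 and 0.63 to 1.23 in the others. The relation of Cd74 to H2-Aa also depended on the row, since Cd74-201 minus H2-Aa-003 was 3.49 in aged library 3 and 0.73 to 1.78 in the others.

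**Figure D3:**
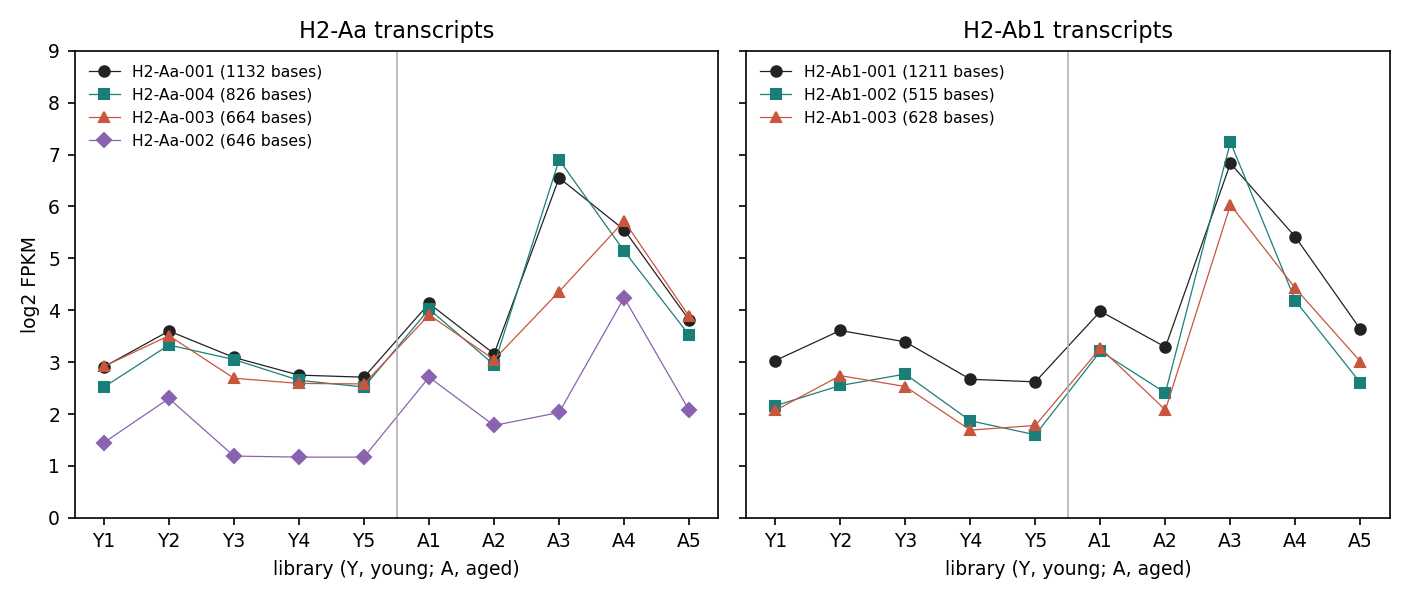
log2 FPKM (y axis) of the transcript rows of H2-Aa (left) and H2-Ab1 (right) in each library (x axis; Y, young; A, aged). The rows of H2-Aa run together in 9 libraries, whereas in aged library 3 the row H2-Aa-003 is at 4.36 and H2-Aa-001 at 6.55.

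The chosen rows of the 4 genes are 1132 to 1218 bases long by their recovered lengths. The level in aged library 3 differed between length classes without a steady trend. Its median from the other aged libraries was −0.33 for genes of 60 to 1000 bases, −0.19 for 1501 to 3000 and −0.61 for longer ones. The 995 genes with transcripts of 1001 to 1500 bases lay at a median of 0.15 above the other aged libraries, with a 95th percentile of 1.49. Cd74, H2-Ab1, H2-Eb1 and H2-Aa lay 3.03, 3.02, 2.73 and 2.59 above them in that library. In aged library 4, whose genes of that length had a median of −0.14 and a 95th percentile of 0.91, they lay 1.63, 1.61, 1.70 and 1.59 above the others. The part of these row differences in the level of aged library 3 was not tested.

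The wider class II pathway was read from lists of named genes. Beside them, 1.04% of all genes passed the 2-fold criteria with the higher level in aged muscle, and the median difference of all genes was 0.072. The median of a list is taken over its genes above 0 in at least 1 library. Of 5 other class II genes, H2-Oa, H2-Ob, H2-Eb2 and the pseudogene H2-Ea-ps were listed at 0 throughout, and H2-DMb2, a second DM beta chain, was above 0 only in aged libraries 3 and 4, at 0.79 and 0.77. The 10 transcriptional regulators of class II other than Ciita had a median difference of 0.13 and none past the criteria. The NF-Y subunit Nfyc averaged 3.77 ± 0.06 in young and 3.73 ± 0.14 in aged libraries (SD, n = 5 each). Rfxap, a subunit of the RFX complex, was 2.66 ± 0.07 in young and 2.43 ± 0.13 in aged muscle (SD, n = 5 each), a difference of −0.22 with every aged library below every young one (exact permutation p = 0.00794, the smallest possible; limma adjusted p = 0.9999), as 0.344% of genes were. Nfyb, another NF-Y subunit, was at 0.88 in aged library 3 and 2.40 in young library 3, against 3.20 to 3.98 in the other 8 libraries.

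Of the 10 interferon gamma signaling genes, 1 passed the 2-fold criteria and the median difference was 0.04. This was Socs1, an inhibitor of Jak kinases, which was listed at 0 in every young library and had 0.66, 2.06, 4.09, 2.03 and 0 in aged libraries 1 to 5 (exact permutation p = 0.0476; limma adjusted p = 0.9999). Socs1 met the level filter only through its aged libraries. The count of 1 became 0 with the replicate block, with quantile normalization, without any single young library, without aged library 2 or 4 and without both libraries numbered 3, and 3 without aged library 5. The receptor gene Ifngr1 had 2.86 ± 0.26 in young and 2.90 ± 0.40 in aged muscle, its partner Ifngr2 4.29 ± 0.19 and 3.66 ± 1.11, and the kinase gene Jak1 4.69 ± 0.39 and 4.45 ± 0.93 (SD, n = 5 each). The latter 2 were lowest in aged library 3, at 1.85 and 2.86. Irf1, an interferon-induced transcription factor named after its values were seen, did not pass. It had 1.44 to 2.07 in young and 2.12, 1.80, 2.82, 3.83 and 1.39 in aged libraries 1 to 5. Its highest levels were in aged libraries 3 and 4, as were those of the class II genes. Ifng itself was listed at 0 in all libraries.

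Of the 11 genes of endosomal antigen processing, 1 passed the criteria and the median difference was 0.41. Ctss, the cathepsin that trims the invariant chain, had 0.49, 1.67, 0.97, 0.78 and 0.20 in young and 2.61, 1.33, 3.87, 4.77 and 3.33 in aged libraries (log2 difference 2.36, 5.13-fold, exact permutation p = 0.0159, limma adjusted p = 0.618). It was highest in aged library 4. The count was 2 without aged library 1 or 2. Lgmn, an endosomal protease named after its values were seen, was above the young range in every aged library, at 4.14 ± 0.39 against 3.53 ± 0.11 (SD, n = 5 each; exact permutation p = 0.00794, limma adjusted p = 0.9999). Ctsd, the most abundant gene of the list, was 7.98 ± 0.21 in young and 8.29 ± 0.73 in aged muscle (SD, n = 5 each). Of 8 costimulatory genes 4 were listed at 0 throughout and none passed. Cd274, which encodes PD-L1, was above 0 only in aged libraries 3 and 4, at 0.53 and 2.65, and Icam1 had 0.49, 0, 0.56, 1.64 and 0.25 in aged libraries and 0 in the young.

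Of 9 class I presentation genes, which many cells express, all 9 had a higher mean in aged muscle, as 61.4% of all genes had, with a median difference of 0.80, and 1 passed the criteria. That gene, the peptide transporter subunit Tap1, was at 0 in 4 of 5 young libraries and had 0.69, 0.43, 2.65, 2.66 and 0.15 in aged libraries (exact permutation p = 0.0159). Tap1 met the level filter only through its aged libraries. The count of 1 became 0 with median-of-ratios scaling, with quantile normalization, without any single young library, without aged library 3 or 4 and without both libraries numbered 3, 4 without aged library 2 and 3 without aged library 5. B2m, the class I light chain, was 6.41 ± 0.08 in young and 7.20 ± 0.70 in aged muscle (SD, n = 5 each), with 7.95 and 7.94 in aged libraries 3 and 4 (exact permutation p = 0.0159). H2-K1 had groups that did not overlap, at 5.51 ± 0.06 and 6.31 ± 0.70 (SD, n = 5 each; exact permutation p = 0.00794). Limma's adjusted p was 0.9999 for Tap1, B2m and H2-K1, and reads shared among class I copies are uncertain. Nlrc5, the activator of class I genes and a relative of Ciita, was above 0 only in aged libraries 3 and 4, at 0.72 and 0.73, and was named after its values were seen. Its higher aged mean was therefore fixed in advance.

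Several macrophage markers were higher in aged libraries 3 and 4, in which the class II genes were high, but not all of them. All 12 macrophage markers were above 0 in at least 1 library and had a higher mean in aged muscle, as 61.4% of all genes had. Adgre1, Aif1, Itgam and Mpeg1 were at 0 in every young library, so for them a higher aged mean was fixed in advance. Of the 12 markers, 4 passed the 2-fold criteria, and the median difference was 1.02. The summed FPKM of the 12 was 19.9 to 51.0 in young libraries and 50.3, 35.9, 142, 176 and 76.1 in aged libraries 1 to 5. The 4 that passed were Cd68, Lyz2, C1qb and Mpeg1, of which Cd68 and Mpeg1 met the level filter only through their aged libraries, and the count fell to 1 with the replicate block, without aged library 4 or without both libraries numbered 3. It was 2 with quantile normalization, without young library 1, 4 or 5 or without aged library 3. Adgre1, Cd163 and Itgam, named after their values were seen, were at 0 in aged library 3, where the class II genes were highest, while in aged library 4 they had 1.32, 1.80 and 0.96. Aif1, C1qa and C1qc went the other way, at 3.26, 5.22 and 4.68 in aged library 3 and 1.88, 4.44 and 4.35 in aged library 4. Genes with transcripts over 3000 bases, and less so those of 60 to 1000 and 1501 to 3000 bases, lay low in aged library 3, as given above. The part of length in these values was not tested. The complement gene C1qb had 1.85, 2.51, 2.26, 1.48 and 1.50 in young and 2.56, 2.12, 4.91, 4.70 and 3.08 in aged libraries (exact permutation p = 0.0317), and Lyz2, a lysozyme gene, had 3.37 to 4.55 in young and 4.80, 4.14, 4.80, 6.29 and 5.37 in aged libraries (exact permutation p = 0.0159). Of 8 dendritic cell markers, Itgax, Flt3, Xcr1, Ccr7 and Clec9a were at 0 in all libraries, and 1 passed, Clec10a, a lectin gene also expressed by macrophages, at 0.70 ± 0.26 in young and 1.79 ± 0.61 in aged muscle (SD, n = 5 each; exact permutation p = 0.0159). The count of 1 became 0 with log2(FPKM + 1), with quantile normalization, without aged library 3 and without both libraries numbered 3. The summed FPKM of the dendritic list was 1.44 to 2.67 in young and 1.91 to 6.40 in aged libraries. Limma called no marker of any list.

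B cell genes were above 0 only in aged library 4, where Cd79b, Ms4a1 and Cd79a had 2.11, 1.99 and 1.67 and the list summed to an FPKM of 14.6. Pax5 and Cd22 were at 0 there too, and all 7 B cell markers were at 0 in aged library 3, in which the class II genes were highest. Of 6 T cell markers only Cd3g, in aged library 3, was above 0, at 0.48. Of the pan-leukocyte genes, Laptm5 passed the criteria with groups that did not overlap, at 0 to 0.68 in young and 1.18, 0.69, 3.18, 2.95 and 1.40 in aged libraries (exact permutation p = 0.00794). Laptm5 met the level filter only through its aged libraries. Ptprc was above 0 only in aged library 4, at 1.48. Coro1a ranged from 0 to 5.52 over the libraries, with means of 2.90 in young and 3.24 in aged muscle. Of 4 plasma cell genes none passed, Xbp1, which muscle also expresses, was 3.94 ± 0.15 in young and 4.65 ± 0.23 in aged muscle (SD, n = 5 each; exact permutation p = 0.00794), and Jchain, listed as Igj, was above 0 only in aged library 1, at 2.48. Endothelial markers summed to an FPKM of 34.5 to 40.5 in young and 28.7 to 50.3 in aged libraries, and none of the 5 passed. None of the 7 muscle fiber genes passed, with a median difference of −0.10. The part of macrophage, B cell or other cell numbers in the class II level was not tested.

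**Figure D4:**
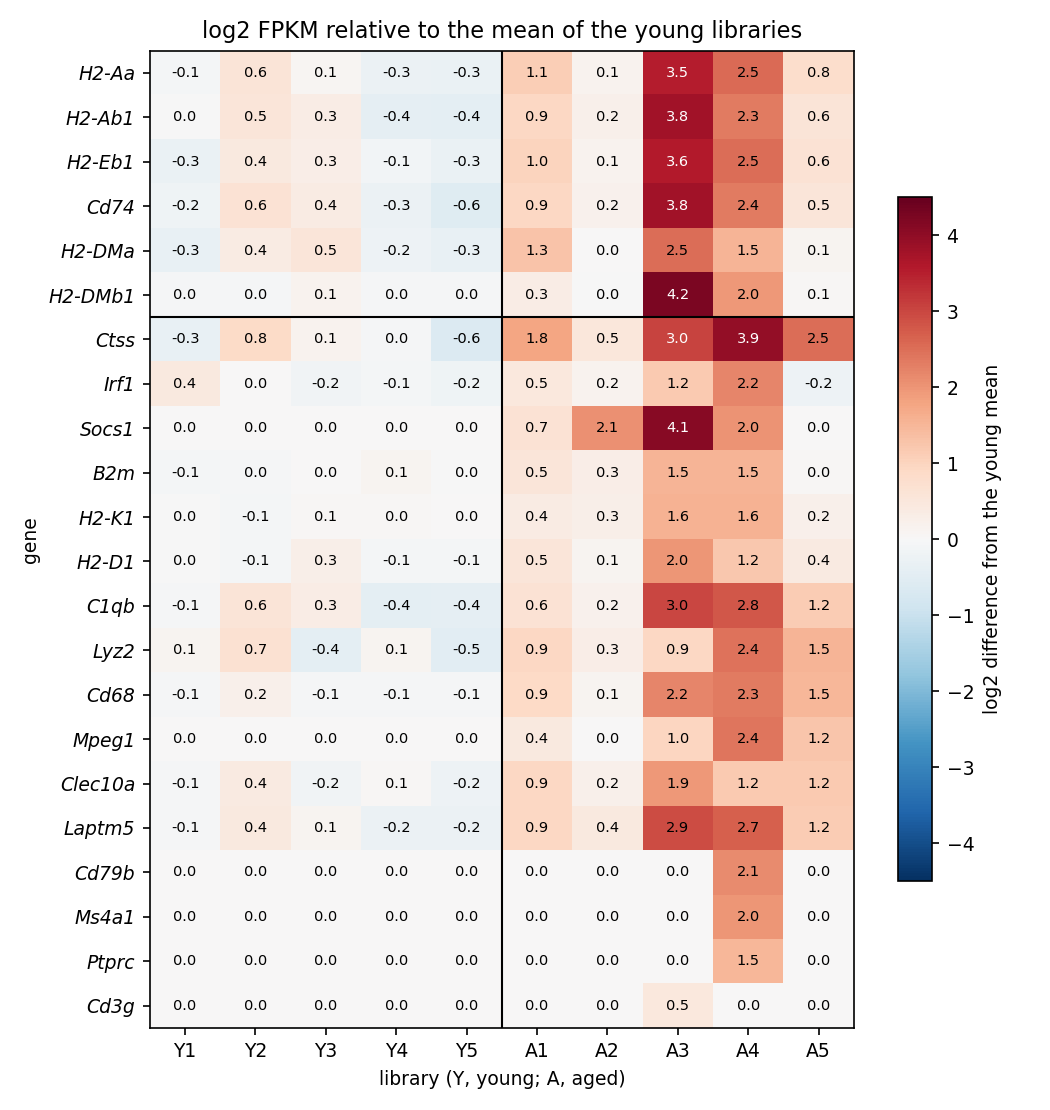
log2 FPKM of the class II genes, Cd74 and 16 genes named in the text (y axis) minus the mean of the young libraries, for each library (x axis; Y, young; A, aged), as color and number. The class II genes and Cd74 are 1.5 to 4.2 above the young mean in aged libraries 3 and 4, where C1qb and Laptm5 are also high, and Cd79b and Ms4a1 are above 0 only in aged library 4.

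The genes whose pattern was most like that of the class II set were sought among 8212 other genes above 0 in all libraries, by Pearson's r over the 10 libraries with the mean standardized level of H2-Aa, H2-Ab1, H2-Eb1 and Cd74. They were the class I genes H2-T23 (r = 0.982, Spearman's rho = 0.915) and H2-D1 (r = 0.977, rho = 0.915), the complement genes C2 (r = 0.969, rho = 0.879) and C1qb (r = 0.967, rho = 0.976), and Unc93b1, a chaperone of endosomal Toll-like receptors (r = 0.969, rho = 0.976). Without aged libraries 3 and 4, the farthest from the median, r was 0.828, 0.796, 0.824, 0.889 and 0.941 for H2-T23, H2-D1, C2, C1qb and Unc93b1. H2-T23 had a mean of 2.62 ± 0.18 in young and 3.66 ± 1.15 in aged muscle, and Unc93b1 0.59 ± 0.32 and 1.64 ± 0.87 (SD, n = 5 each). These values describe genes picked for their likeness in the same 10 libraries, each with its own depth.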

How the data were processed

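Poly-A RNA of gastrocnemius muscle from 5 young and 5 aged mice was sequenced as paired ends. The authors mapped reads to mm10 with TopHat2, computed FPKM and deposited log2 FPKM for each library without pooling, with an FPKM under 1 listed as 0. The methods describe RefSeq genes, whereas the rows carry Ensembl and Vega transcript names, and the counting program is not given in the sources used here. The 233 unnamed rows (0.253%) were left out, and all value columns were used (0 left out). Libraries were grouped by the age in their labels.

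Deposited log2 values of the 37952 transcripts whose mean FPKM reached 1 were fitted in limma 3.58.1 (R 4.3.3), and adjusted p-values (Benjamini-Hochberg) under 0.05 were called. Single genes were compared over all 252 labellings of the libraries (two-sided exact permutation test, smallest p 0.00794). Alternatives covered the pseudocount, filter, scaling, variance trend, block and omission of each library. Depth, read numbers and transcript lengths were recovered from the steps of the values, at which 1000 of 1000 sampled transcripts held whole reads within 0.01 reads. For 79.8% of the sampled transcripts the recovered length was an annotated length of the gene. Those of the chosen rows of H2-Aa, H2-Ab1, H2-Eb1 and Cd74 were not annotated ones. Depth and read numbers served to describe precision, and the recovered lengths to group genes and rows by length. Library numbers are shared by young and aged libraries, whose deviations from the group means correlated at 0.13, 0.333, 0.694, 0.39 and 0.208 within numbers 1 to 5 and at −0.038 on average otherwise, so the block was also fitted. The labels do not say what the numbers share. The p-values set a difference against the spread or the permutations of these libraries. Genes named beyond the 7 were the 5 most alike and, from each list, those past the 2-fold criteria and some of the 3 with the highest mean. Genes listed at 0 in all libraries or in those discussed are also named, and such genes and any others were named after their values were seen. The members and lists were chosen with earlier results of these data known. Results for 1 gene of the lists are not reported here. Other steps ran in Python 3.11.15 (scipy 1.17.1, numpy 2.4.6, matplotlib 3.10.9, pandas 2.3.3).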

Additional observations from a re-analysis of the deposited data

Results flagged for a closer look

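H2-DMb1 was above 0 in only 1 young library, number 3, with a log2 FPKM of 0.18, from 27 reads, while the other 4 young libraries were listed at 0. Its gap to the others took up the whole range of the group (ratio 1), which follows from the 4 values listed at 0 for an FPKM under 1, so Dixon's critical value of 0.71 for 5 samples and its usual chance rate of 1 in 20 groups do not apply. Whether this library differed from the other 4 cannot be told from the listed values. Young library 3 was also the deepest, with 34554359 reads, and aged library 3 had the highest H2-DMb1 level of all libraries, at 4.26.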

How the results depend on the processing

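No gene of the set was called by limma's adjusted p under any setting that kept that rule, whose lowest adjusted p was 0.356 for H2-Eb1 without both libraries numbered 3, whereas the 2-fold criteria called 2. The count of 2 past those criteria became 0 with the replicate block, 4 with log2(FPKM + 1), 4 with values at 0 taken as FPKM 0.5, 0 with median-of-ratios scaling, 1 with quantile normalization and 0 without both libraries numbered 3, and ran from 0 to 5 over the fits that left out 1 library. It was 5 without aged library 2 or 5, 1 without young library 2 or aged library 3, and 0 without any other young library or aged library 4. The count of genes without overlap, 0, became 1 without both libraries numbered 3 and ran from 0 to 3 with single libraries left out, with 3 without aged library 2. No log2 difference reversed. For single genes 85 values kept their side of the threshold, 26 lost and 7 gained an exact p under 0.05. The range was 1.15 to 2.00 for H2-Aa, 1.02 to 1.90 for H2-Ab1, 1.08 to 1.93 for H2-Eb1, 1.00 to 1.90 for Cd74, 0.74 to 1.50 for H2-DMa and 0.59 to 2.12 for H2-DMb1. The median difference of all transcripts was 0.034, and 0.175 without aged library 3. The block changed no limma call of the set, in which there was none, and took the transcripts called by limma from 3 to 0. With smaller groups the smallest possible p is higher, and the cause of the other shifts was not tested. With values under FPKM 1 listed at 0, low levels of Ciita and the DM genes could not be measured.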
